A study of Ovis aries with 9 samples.

Results

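10 genes of the ovarian surface and of epithelium were followed in the ovaries of 9 ewes. They were chosen by name, from what they are known to mark, with earlier results of these data known, as were the gene lists below. They are the keratins KRT7, KRT8, KRT18 and KRT19, the adhesion and junction genes EPCAM, CDH1, CLDN3 and CLDN4, and the mesothelial genes UPK3B and MSLN. All 10 had a row among the 27174 rows of the count table, and all 10 passed the filter on low counts, which left 16871 genes for testing.

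The study compared sheep breeds of different fecundity by RNA sequencing of whole ovaries with ovulation points, 1 library per ewe. The 3 Dorset ewes (D4, D5 and D6), labelled wild type, were the low-fecundity group. The Small Tail Han ewes were of 2 genotypes at the FecB mutation of BMPR1B, a receptor of bone morphogenetic proteins: 3 ewes carried it on both alleles (Han BB: W1, W2 and W4) and 3 on none (Han ++: W6, W7 and W8). All 9 ewes were 2.5 to 3 years old, had received a fluorogesterone acetate sponge followed by pregnant mare serum gonadotropin, and were killed 24 to 36 h after a later spontaneous estrus. Fecundity and the other differences between the breeds cannot be told apart in the contrasts with Dorset, and Han BB against Han ++ is the contrast within 1 breed.

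The ovary is covered by a single layer of flat to cuboidal cells, the ovarian surface epithelium, which is continuous with the mesothelium of the body cavity. These cells carry simple keratins and mesothelial proteins, and in several species they are known for low E-cadherin and EPCAM, which are instead typical of gland-forming epithelia such as the lining of the oviduct. Keratins also occur outside epithelium, and KRT8 and KRT18 are known from follicle cells too, so none of the 10 genes marks a single cell type in a whole ovary.

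Levels are CPM, reads scaled to the total of the library, with TMM factors that correct for composition, and errors are SDs over the 3 ewes of a group. Between 10803913 and 20992535 reads were counted per library. Gene lengths were not used here, so levels are compared between libraries and not between genes. In bulk tissue, fewer cells of a type and less RNA per cell cannot be told apart. Libraries W4 and D6 stood apart from the other 7 on the first principal component of all tested genes, which held 42.4% of the variance, at -99.0 and -88.1, while the others lay between -18.5 (W7) and 100 (D4). D4 was thus as far out on the other side as W4, followed by W8 (60.0) and W2 (42.0). A single gene, LOC101101865, took 14.9% of the reads in D4, 7.69% in W8 and 3.79% in W2. Results that rest on W4 or D6 are given with and without them.

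Of the keratins, KRT7, KRT18 and KRT19 were higher in all Han ++ ewes than in any Dorset ewe, and all 4 varied most from ewe to ewe in Dorset. None of these differences passed the test across all genes, given after the levels. KRT7, a type II keratin of ducts and simple epithelia, was at 5.74, 9.92 and 33.7 CPM in D4, D5 and D6, at 25.2, 21.4 and 36.8 in W1, W2 and W4, and at 35.5, 35.1 and 34.0 in W6, W7 and W8. The 3 Han ++ ewes were thus nearly equal, with a coefficient of variation of 2.26%, and the Dorset ewes spanned 5.87-fold, a coefficient of 91.7%. Every Han ++ value lay above every Dorset value, although D6 only just fell short of W8.

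KRT8, the type II keratin found in almost every simple epithelium, was at 71.9, 61.0 and 149 CPM in Dorset, 68.5, 106 and 149 in Han BB, and 75.7, 111 and 158 in Han ++. Its groups overlapped throughout, and each held a low and a high ewe. KRT18, the type I partner with which KRT8 forms filaments, was at 38.1, 16.5 and 56.2 CPM in Dorset, 27.6, 49.3 and 37.6 in Han BB, and 65.3, 59.2 and 58.0 in Han ++. All Han ++ ewes were above all others. The ratio of KRT8 to KRT18 reads was not constant across the ovaries: it ran from 1.16 in W6 to 3.96 in W4, and it varied within groups (2.75 ± 0.909 in Dorset, 2.87 ± 0.966 in Han BB and 1.92 ± 0.783 in Han ++, SD, n = 3).

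KRT19, a small type I keratin of simple epithelia, mesothelium and duct linings, was at 71.0, 29.7 and 83.9 CPM in Dorset. It was at 82.7, 90.2 and 81.5 CPM in Han BB and at 111, 99.8 and 123 in Han ++. The Han ++ ewes again exceeded every other ewe, while D6 lay within the Han BB range, D4 under it and D5 far under it. Group means were 61.5 ± 28.3, 84.8 ± 4.69 and 111 ± 11.5 CPM (SD, n = 3 each).

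**Figure D1:**
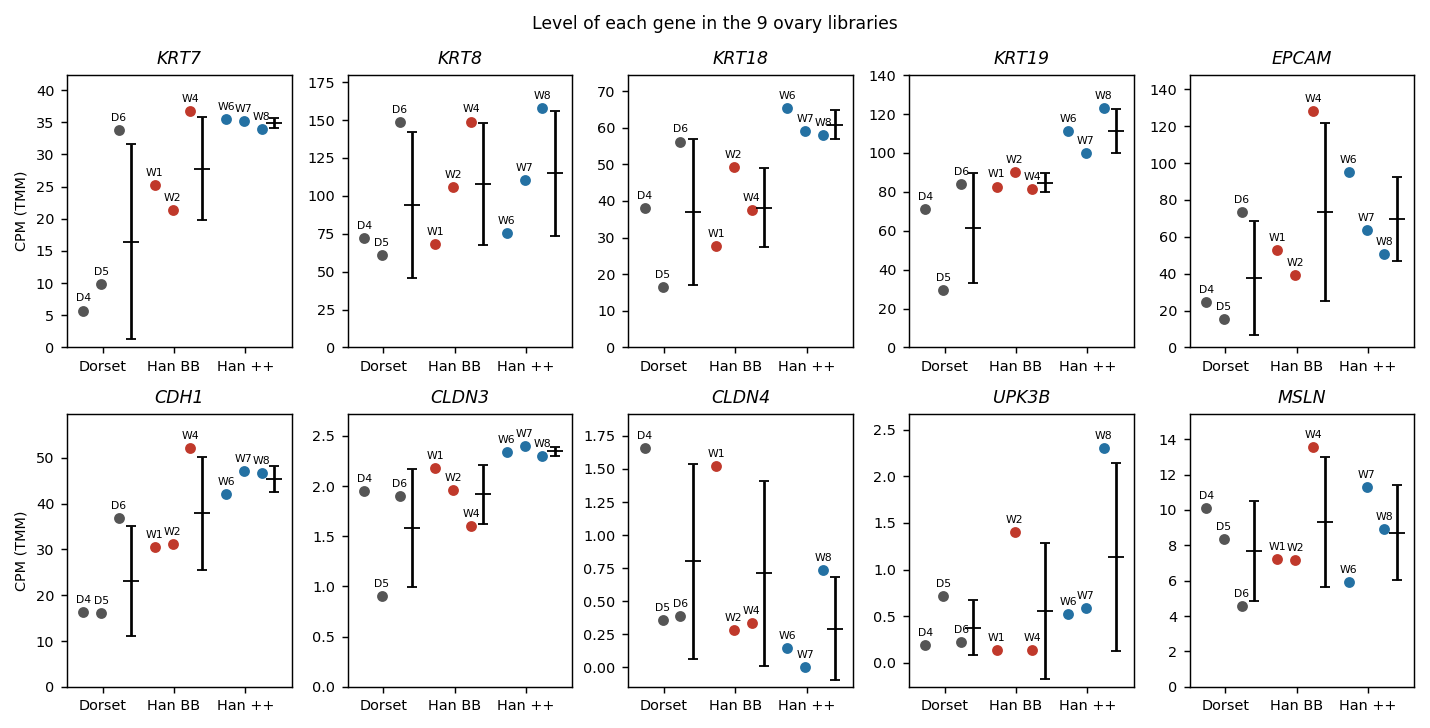
Level of each of the 10 genes (CPM, TMM scaled, linear axes) in the 3 Dorset (grey), 3 Han BB (red) and 3 Han ++ (blue) ewes, 1 point per library, with the group mean and SD as bars. KRT7, KRT18, KRT19, CDH1 and CLDN3 have all Han ++ points above all Dorset points, while MSLN, UPK3B, CLDN4 and KRT8 overlap.

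Among the adhesion genes, EPCAM and CDH1 followed much the same order of ovaries as KRT7. EPCAM, an adhesion protein of gland-forming epithelia, was at 24.4, 15.4 and 73.3 CPM in D4, D5 and D6, 52.9, 39.2 and 128 in W1, W2 and W4, and 95.0, 63.5 and 50.6 in W6, W7 and W8. Its highest level was 8.36 times its lowest. The highest ewe of each group (W4, W6 and D6, in that order) lay above the lowest 2 ewes of every other group, so the groups overlapped. CDH1, which encodes E-cadherin, the calcium-dependent adhesion protein of epithelial junctions, was at 16.3, 16.1 and 36.9 CPM in Dorset, 30.5, 31.1 and 52.2 in Han BB, and 42.2, 47.2 and 46.8 in Han ++. All Han ++ ewes were above all Dorset ewes, and the Han BB ewes overlapped with both groups.

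The tight junction claudins were far lower in reads. CLDN3, with 20 to 53 reads per library, was at 1.95, 0.902 and 1.90 CPM in Dorset, 2.18, 1.96 and 1.61 in Han BB, and 2.34, 2.40 and 2.30 in Han ++. The Han ++ values were nearly equal and above all 6 others, but each rests on few reads. CLDN4 had 0 to 32 reads per library, and its 2 highest levels were in different groups: 1.65 CPM in D4 and 1.52 in W1, against 0 to 0.737 in the other 7. W7 had no CLDN4 read, which allows up to 0.136 CPM at 3 counts. These limits cover counting error only.

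The mesothelial genes each followed another order. MSLN, a surface protein of mesothelium, was at 10.1, 8.34 and 4.58 CPM in Dorset, 7.21, 7.14 and 13.6 in Han BB, and 5.92, 11.3 and 8.93 in Han ++. D6, the Dorset ewe with the most KRT7, EPCAM and CDH1, had the least MSLN of all 9 ewes. W4, which had the most KRT7, EPCAM and CDH1 of all 9, also had the most MSLN. UPK3B, a uroplakin of urothelium and mesothelium, had 2 to 25 reads per library and was at 0.195, 0.721 and 0.223 CPM in Dorset, 0.142, 1.40 and 0.134 in Han BB, and 0.525, 0.588 and 2.30 in Han ++. The groups overlapped for both genes.

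The summed level of the 10 genes was 280 ± 144 CPM in Dorset, 383 ± 106 in Han BB and 449 ± 30.6 in Han ++ (SD, n = 3 each). It was lowest in D5, at 159 CPM, and highest in W4, at 501. D5 held the lowest level of 6 of the 10 genes. By group mean, Han ++ was highest for 7 genes, Han BB for EPCAM and MSLN, and Dorset for CLDN4. Neighbouring groups in that order overlapped in every case except Han BB and Han ++ for KRT18, KRT19 and CLDN3.

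The first comparison asked how each Han group differed from Dorset, the low-fecundity reference. Both contrasts share the 3 Dorset libraries, so they are not independent. In Han ++ against Dorset, 9 of the 10 genes had a positive log2 fold change, with a median of 0.79, where 44.1% of all tested genes were positive and the median of all was -0.06. No member was called by edgeR's quasi-likelihood test (called: a Benjamini-Hochberg adjusted p under 0.05 with a change of over 1.5-fold either way), which called 0.00593% of all genes. CDH1 was 1.96-fold higher (log2 fold change 0.97 ± 0.37 SE, unadjusted p = 0.0232, edgeR adjusted p = 0.883) and KRT19 1.81-fold higher (0.85 ± 0.35, unadjusted p = 0.0328, edgeR adjusted p = 0.891). These 2 genes passed an unadjusted p of 0.05, as 5.27% of all genes did. KRT7 was 2.11-fold higher but with a wider error (1.08 ± 0.53, unadjusted p = 0.0689), and the log2 differences of KRT18 (0.72 ± 0.40) and EPCAM (0.89 ± 0.59) were less than 2 SE from 0.

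By position alone, 5 members (KRT7, KRT18, KRT19, CDH1 and CLDN3) had all Han ++ ewes above all Dorset ewes, and none had them below. Of all tested genes, 11.1% did not overlap in this comparison and 5.47% did so in the upward direction. The 5 genes vary together across ovaries and are not 5 independent observations. KRT7 dropped from this set when the libraries were scaled with DESeq2's size factors, which left 4. The low-count genes gave wide errors: UPK3B had a log2 difference of 1.51 ± 1.19 and CLDN4 of -1.51 ± 1.40. MSLN differed by 0.19 ± 0.42.

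In Han BB against Dorset, 9 of 10 genes again had a positive log2 fold change, with a smaller median of 0.37 (49.4% of all genes, whose median was -0.01). No member was called, as no gene at all was (0%), and none had an unadjusted p under 0.05, as 4.99% of all genes did. CDH1 came closest to the threshold, with a log2 difference of 0.71 ± 0.37 (unadjusted p = 0.0788, edgeR adjusted p = 0.977), and EPCAM had the widest gap at 0.96 ± 0.59. KRT8 and KRT18 differed by 0.20 ± 0.42 and 0.05 ± 0.40. No member was free of overlap between the 2 groups, where 8.79% of all genes were.

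**Figure D2:**
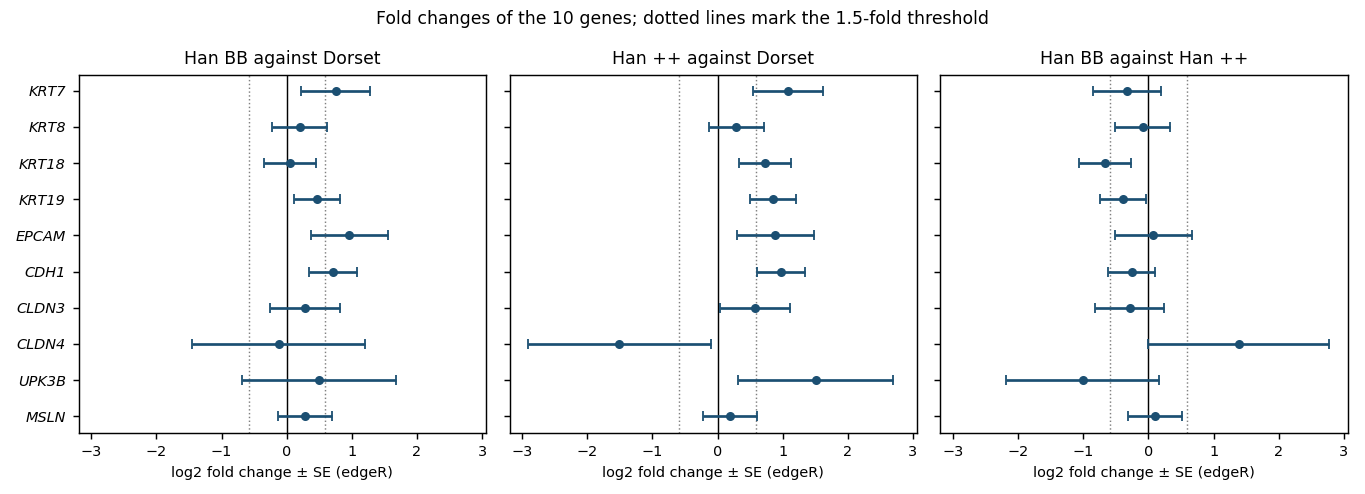
Log2 fold changes of the 10 genes in the 3 pairwise comparisons (points, with the standard error derived from edgeR's F-test as bars, all axes in log2 units). Dotted lines mark a fold change of 1.5 in either direction. In both panels against Dorset 9 of 10 points lie right of 0, and CLDN4 and UPK3B have the widest bars.

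Within the Han breed, 7 of 10 genes were lower in Han BB than in Han ++, with a median log2 difference of -0.27 where the median of all genes was 0.04. No member was called and none had an unadjusted p under 0.05, against 1.97% of all genes. KRT18 (-0.67 ± 0.40), KRT19 (-0.39 ± 0.35) and CLDN3 (-0.29 ± 0.53) were lower in every Han BB ewe than in any Han ++ ewe. Of all genes, 9.38% did not overlap here and 4.59% were without overlap in the lower direction. EPCAM differed by 0.08 ± 0.58, with W4 alone far above the other 2 Han BB ewes.

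When both Han groups were set against Dorset in 1 contrast, CDH1 had a log2 difference of 0.84 ± 0.33 (unadjusted p = 0.0264, edgeR adjusted p = 0.721) and KRT19 of 0.66 ± 0.31 (unadjusted p = 0.0569). CDH1 alone was under 0.05, as 6.12% of all genes were. No member separated all 6 Han ewes from the 3 Dorset ewes, as 3.76% of all genes did. For the keratins, EPCAM, CDH1 and CLDN3, D6 lay among the Han ewes, as did D4 for KRT8, KRT18 and CLDN3. Neither DESeq2 nor limma voom with quality weights called a member in any of these comparisons. Of all genes, DESeq2 called 0.244% in Han BB against Dorset, 0.405% in Han ++ against Dorset, 0.0081% within Han and 0.532% for both Han groups, and voom called 0.0119% within Han and 0% otherwise. Their unadjusted counts differed, as did their shares of all genes. In Han ++ against Dorset, DESeq2 had 2 members at an unadjusted p under 0.05 (4.63% of all genes) and voom 5 (9.78%), namely KRT7, KRT18, KRT19, EPCAM and CDH1. In Han BB against Dorset DESeq2 had 0 (5.4% of all genes) and voom 4 (11.5%), and within Han DESeq2 had 0 (2.21%) and voom 3 (7.26%), KRT18, CDH1 and CLDN4. For both Han groups against Dorset DESeq2 had 2 (5.71%) and voom 5 (11.3%). In edgeR's test of any difference among the 3 groups, CDH1 had the lowest unadjusted p of the members, 0.0635, and 3.94% of all genes were under 0.05.

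W4 and D6 shared a high level of the same genes. Each had the most KRT7, KRT8, EPCAM and CDH1 of its group, and D6 also the most KRT18 and KRT19. With a covariate for these 2 libraries against the other 7, edgeR's quasi-likelihood test called CDH1 (log2 difference 1.41 ± 0.20, adjusted p = 0.0210) and EPCAM (1.74 ± 0.31, adjusted p = 0.0404) as higher in Han ++ than in Dorset, among 0.462% of all genes, and KRT7 missed the threshold (1.87 ± 0.35, adjusted p = 0.0521). With both libraries left out, which leaves 2 ewes each in Dorset and Han BB, KRT7 was called (2.13 ± 0.31, edgeR adjusted p = 0.0423), among 0.119% of all genes, and CDH1 was not (1.48 ± 0.24, adjusted p = 0.0515). No member was called in Han BB against Dorset in either fit, which called 0.00593% and 0.0108% of all genes, nor in Han BB against Han ++, which called 0%. Without D6 and W4, 7 members did not overlap between Han ++ and Dorset (24.4% of all genes at these group sizes), 6 between Han BB and Dorset (33.8%) and 5 between the Han groups (27.8%). Leaving out D6 alone gave 4 between Han BB and Dorset (24.3%), and leaving out W4 alone gave 1 (18%). Between the Han groups, leaving out W4 alone gave 5 (27.8%). The split was found in the same data and moves with the levels of the genes themselves, and what W4 and D6 share was not tested. D4, at the other end of the first principal component, stayed in Dorset in both fits. D4 had the least KRT7 of all ewes.

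Leaving out D5, the ewe with the least keratin, worked the other way. Without it no member had an unadjusted p under 0.05 in Han ++ against Dorset, and the median log2 difference of the members was 0.43, against 1.16 without D6.

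Levels of 6 genes moved together across all 9 ovaries, but several pairs did so only loosely once 2 libraries were left out. Over the 9 libraries, the 15 pairs among KRT7, KRT8, KRT18, KRT19, EPCAM and CDH1 had Pearson's r of 0.55 to 0.95 on log2 CPM. The r was 0.31 to 0.91 after the group means were removed, and 0.392 to 0.959 without W4 and D6. Without the 2 libraries farthest from the median of the first gene of each pair, it was 0.042 (KRT8 with KRT18) to 0.873. There KRT8 with KRT19 had 0.215, KRT18 with EPCAM 0.225 and KRT7 with KRT19 0.312. The points share library depth and composition, and D5 sits low in most of them, so the values are given as a description. KRT7 and CDH1 were the closest pair (r = 0.952, Spearman's rho = 0.917, and r = 0.873 without D4 and D5, the 2 libraries farthest from the median of KRT7), and without W4 and D6 it was at 0.959. EPCAM and CDH1 had r = 0.897 (rho = 0.783, 0.807 without D5 and W4, 0.890 without W4 and D6). KRT18 and KRT19 had r = 0.893 (rho = 0.867, 0.802 without D5 and W1, 0.916 without W4 and D6).

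KRT8 and KRT18 encode filament partners and are neighbours in the sheep genome, with 0 coding genes between them in the assembly ARS-UI_Ramb_v3.0, yet their r was 0.595 (rho = 0.50), 0.042 without D5 and W1 and 0.688 without W4 and D6. CLDN3 and CLDN4 are likewise adjacent, with 0 coding genes between, and had r = -0.064 (rho = -0.350, r = -0.081 without W4 and D6), at counts that leave CLDN4 poorly measured. CLDN3 was nearest to KRT19 (r = 0.943, rho = 0.817, 0.649 without D5 and W8, 0.966 without W4 and D6). The 24 pairs that involve MSLN, UPK3B or CLDN4 ranged from -0.51 to 0.25. MSLN with UPK3B had r = -0.054 (rho = -0.200, r = -0.011 without W4 and D6). These low values depended in part on the 2 libraries, since without them UPK3B with KRT8 had r = 0.759, against 0.202 with all 9.

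The genes whose pattern was most like the mean standardized level of the 10 were sought over the 9 libraries. The 10 most alike had Pearson's r of 0.924 to 0.973, and of 0.929 to 0.977 without W4 and D6. They were ARAP2.1 (r = 0.973, rho = 1), MAPK8 (r = 0.957), which encodes the stress kinase JNK1, C15H11orf88 (r = 0.955), LOC101119161, MYO1E, a class I myosin, XLOC_004583, TCEB1, SPDYA, PKIB and LOC101119731, whose gene number is that of CD24 in the RefSeq table. On untransformed CPM, 4 of these 10 were again among the closest 10. They were picked as the closest of all other tested genes over 9 libraries, so selection raises their r, also without W4 and D6. Some had few reads, as LOC101119161 with 0 to 34 per library. The mean weighs the low-count CLDN4 and UPK3B like the keratins.

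Other epithelial genes, a list of 49 written from textbook roles, had 44 rows and 39 tested genes. In Han ++ against Dorset 29 of the 39 were higher and 10 lower, with a median log2 difference of 0.33, and none was called by edgeR. At an unadjusted p under 0.05, 9 were higher and 1 lower (LAMB3, a laminin chain of basement membrane, -0.87 ± 0.32), where 2.61% and 2.66% of all genes were. In Han BB against Dorset 23 were higher, 4 of them at an unadjusted p under 0.05 and none lower (2.1% and 2.89% of all genes).

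CDS1, an enzyme of phospholipid synthesis used as an epithelial marker, was at 2.34, 3.70 and 6.81 CPM in D4, D5 and D6, 10.3, 9.60 and 16.4 in Han BB, and 14.7, 16.5 and 12.0 in Han ++. All Han ewes were above all Dorset ewes (log2 differences of 1.49 ± 0.41 for Han BB and 1.74 ± 0.42 for Han ++), not called by edgeR (adjusted p = 0.927 and 0.563), and DESeq2 gave an adjusted p of 0.0493 for Han ++. RAB25, a small GTPase of epithelial recycling endosomes, was 3.19-fold higher in Han ++ than in Dorset (1.67 ± 0.42, edgeR adjusted p = 0.563), and SPINT1, an inhibitor of epithelial serine proteases, 2.46-fold (1.30 ± 0.37, edgeR adjusted p = 0.639). The most abundant genes of the list, CDH3, ITGA6 and SPINT2, differed from Dorset by 0.23 ± 0.32, -0.22 ± 0.33 and -0.34 ± 0.26 in Han ++.

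A wider list of the ovarian surface and mesothelium had its highest summed level in Han BB, unlike the keratins. Of its 15 genes, 12 had a row and 11 were tested. WT1, a defining transcription factor of this lineage, had only 0 to 10 reads per library. Whether the counting annotation held the whole WT1 gene was not tested, so these reads do not measure the lineage. The summed level of the list ranged over the ewes from 731 to 849 CPM in Han BB and from 548 to 728 in Han ++. In Dorset it ranged from 538 to 657, and the Han BB range lay just above that of Han ++. Gene by gene, 5 of the 11 tested were higher and 6 lower in Han BB than in Dorset (median log2 difference -0.02). Against Han ++, 5 were higher and 6 lower in Han BB, with a median of -0.06. The sum had r = 0.597 with KRT7 (rho = 0.50, 0.438 without D5 and W4, 0.560 without W4 and D6) and 0.694 with EPCAM (rho = 0.617, 0.362 without D5 and W4, 0.569 without W4 and D6). With KRT8, KRT18 and KRT19 its r was 0.293, 0.165 and 0.331, with MSLN 0.168 and with UPK3B -0.402. Without W4 and D6 these values were 0.046, 0.256, 0.397, -0.256 and -0.213, in that order. Most of this sum is ALDH1A1, a retinaldehyde dehydrogenase (log2 differences of 0.43 ± 0.30 for Han BB and -0.32 ± 0.30 for Han ++ against Dorset), and PDPN (-0.02 ± 0.31 and 0.32 ± 0.31) and PKHD1L1 (1.10 ± 0.52 and 0.56 ± 0.51), which other ovarian cells also express. PKHD1L1 was at 30.4, 51.2 and 145 CPM in D4, D5 and D6 and at 135, 110 and 241 in W1, W2 and W4, so that D6 and W4 were again the highest of their groups. LRRN4, a mesothelial membrane protein, was at 4.79, 3.99 and 5.55 CPM in Han BB against 1.85 to 2.66 in Dorset and 1.75 to 2.62 in Han ++ (log2 differences of 1.04 ± 0.41 and 1.10 ± 0.41, edgeR adjusted p = 0.975 and 0.999). UPK1B, a uroplakin, was at 9.34, 35.7 and 21.5 CPM in Dorset, 43.6, 109 and 56.8 in Han BB, and 55.1, 40.3 and 44.5 in Han ++. It was higher in all Han than in all Dorset ewes (1.65 ± 0.48 for Han BB, edgeR adjusted p = 0.963, and 1.06 ± 0.47 for Han ++, edgeR adjusted p = 0.943).

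**Figure D3:**
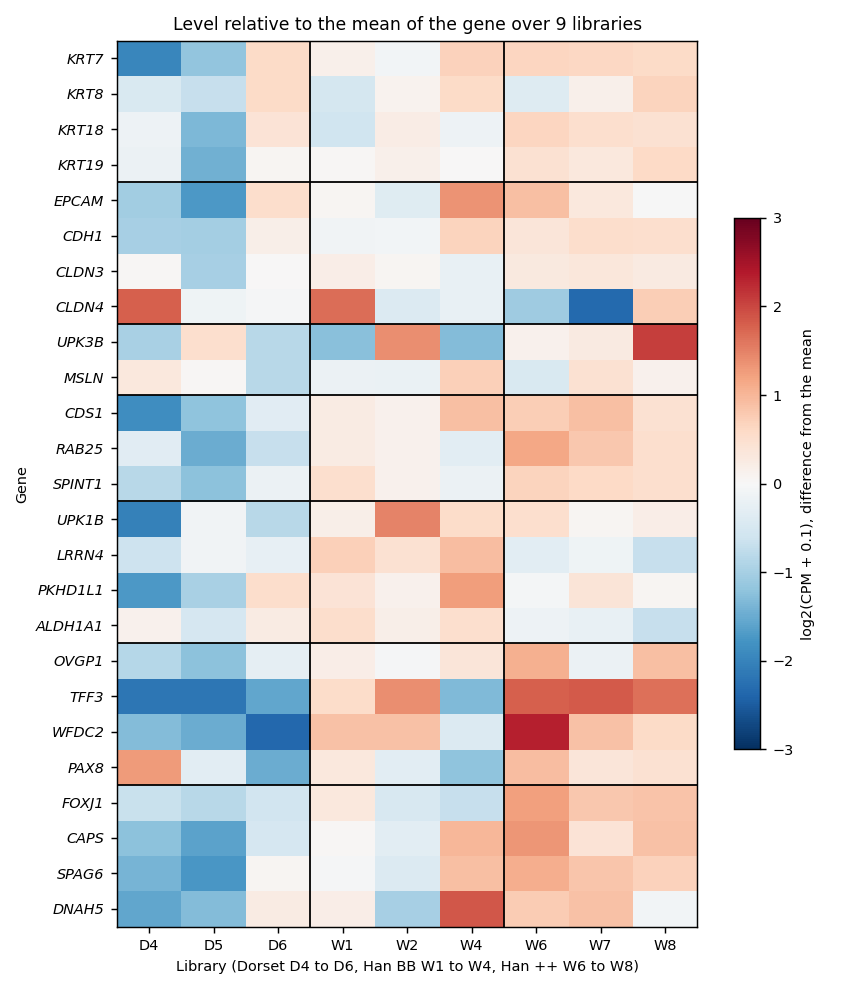
Level of the 10 genes and 15 further epithelial, surface and oviduct genes in each library (columns, grouped as Dorset, Han BB and Han ++), as log2(CPM + 0.1) minus the mean of the gene over the 9 libraries, from blue (low) to red (high). The keratins, EPCAM and CDH1 are blue in D4 and D5 and mostly red in Han ++, as are TFF3 and CAPS, while MSLN and UPK3B each show another order.

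Genes of the oviduct lining were present in these libraries, and EPCAM, CDH1 and KRT7 varied with the summed level of the ciliated genes, though not with every gene. Of 16 genes of multiciliated cells, 13 were tested, and their summed level was 140, 165 and 364 CPM in Dorset, 269, 179 and 784 in Han BB, and 480, 459 and 306 in Han ++. No ciliated gene with a row was at 0 in any library. All 13 were higher in Han ++ than in Dorset, as 44.1% of all tested genes were. Their median log2 difference was 0.78, beside the 0.79 of the 10 followed genes. In Han BB 12 of 13 were higher (49.4% of all genes), with a median of 0.80 beside the 0.37 of the 10 genes. None of the 13 was called by edgeR. At an unadjusted p under 0.05, 3 were higher in Han ++ and 1 in Han BB, where 2.61% and 2.1% of all genes were. FOXJ1, the master regulator of motile cilia (log2 differences of 0.48 ± 0.37 in Han BB and 1.70 ± 0.38 in Han ++), and CAPS (1.39 ± 0.43 and 1.97 ± 0.44) were called in Han ++ by DESeq2 (adjusted p = 0.0229 and 0.0137) and not by edgeR (adjusted p = 0.448 and 0.439). SPAG6, a protein of the ciliary axoneme, had log2 differences from Dorset of 1.07 ± 0.51 and 1.69 ± 0.51. The most abundant of the list were the dynein heavy chains DNAH5 (1.46 ± 0.69 and 1.21 ± 0.68) and DNAH9 (0.01 ± 0.29 and 0.22 ± 0.29) and HYDIN (0.30 ± 0.48 and 0.49 ± 0.48). EPCAM followed this sum closely (r = 0.920, rho = 0.950 over 9 libraries, 0.873 without D4 and W4, 0.883 without W4 and D6, and 0.896 within groups). So did CDH1 (r = 0.870, rho = 0.883, 0.808 without D4 and W4, 0.870 without W4 and D6) and KRT7 (r = 0.831, rho = 0.983, 0.857 without D4 and W4, 0.873 without W4 and D6). MSLN did not (r = 0.182, rho = 0.10, r = -0.142 without W4 and D6), and KRT8 and KRT18 were in between (r = 0.554 and 0.445, and 0.345 and 0.628 without W4 and D6). In W4, which had the highest sum, DNAH5 alone was at 318 CPM. CAPS (33.4 CPM) and SPAG6 (17.1 CPM) were the highest of Han BB there, but FOXJ1 (2.88 CPM) was the lowest of all Han ewes.

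The 8 oviduct secretory genes with a row summed to 510, 387 and 730 CPM in Dorset, 1033, 872 and 1135 in Han BB, and 1889, 800 and 1652 in Han ++, nearly all of it OVGP1, the oviductal glycoprotein (log2 differences from Dorset of 0.92 ± 0.39 in Han BB and 1.42 ± 0.39 in Han ++). All Han ewes were above all Dorset ewes. KRT19 had the highest r with this sum over all 9 libraries, 0.820 (rho = 0.700, 0.748 without D5 and W6, 0.843 without W4 and D6, 0.580 within groups). The ranking depended on the measure. KRT7 had a higher rho (0.733), and EPCAM a higher r without W4 and D6 (0.883) and within groups (0.606). Of the 7 tested, 5 were higher and 2 lower in Han ++ than in Dorset, with a median log2 difference of 0.36, and 3 were higher and 4 lower in Han BB, with a median of -0.01. In both comparisons 3 were higher at an unadjusted p under 0.05 (2.61% of all genes in Han ++ and 2.1% in Han BB). None was called by edgeR. TFF3, a secreted trefoil peptide, was called higher in both Han groups by DESeq2 (adjusted p = 0.0281 and 6.24e-06) and not by edgeR (log2 differences of 2.66 ± 0.62 and 3.85 ± 0.64, adjusted p = 0.749 and 0.203). WFDC2, a secreted whey acidic protein known as HE4, was likewise called in both by DESeq2 (adjusted p = 0.0401 and 5.58e-05) and not by edgeR (2.29 ± 0.57 and 3.21 ± 0.58, adjusted p = 0.767 and 0.215). PAX8, a transcription factor of secretory cells, overlapped with Dorset in both (-0.52 ± 0.62 and 0.36 ± 0.62). The part of oviduct-type lining in the levels of KRT7, EPCAM and CDH1 was not tested.

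**Figure D4:**
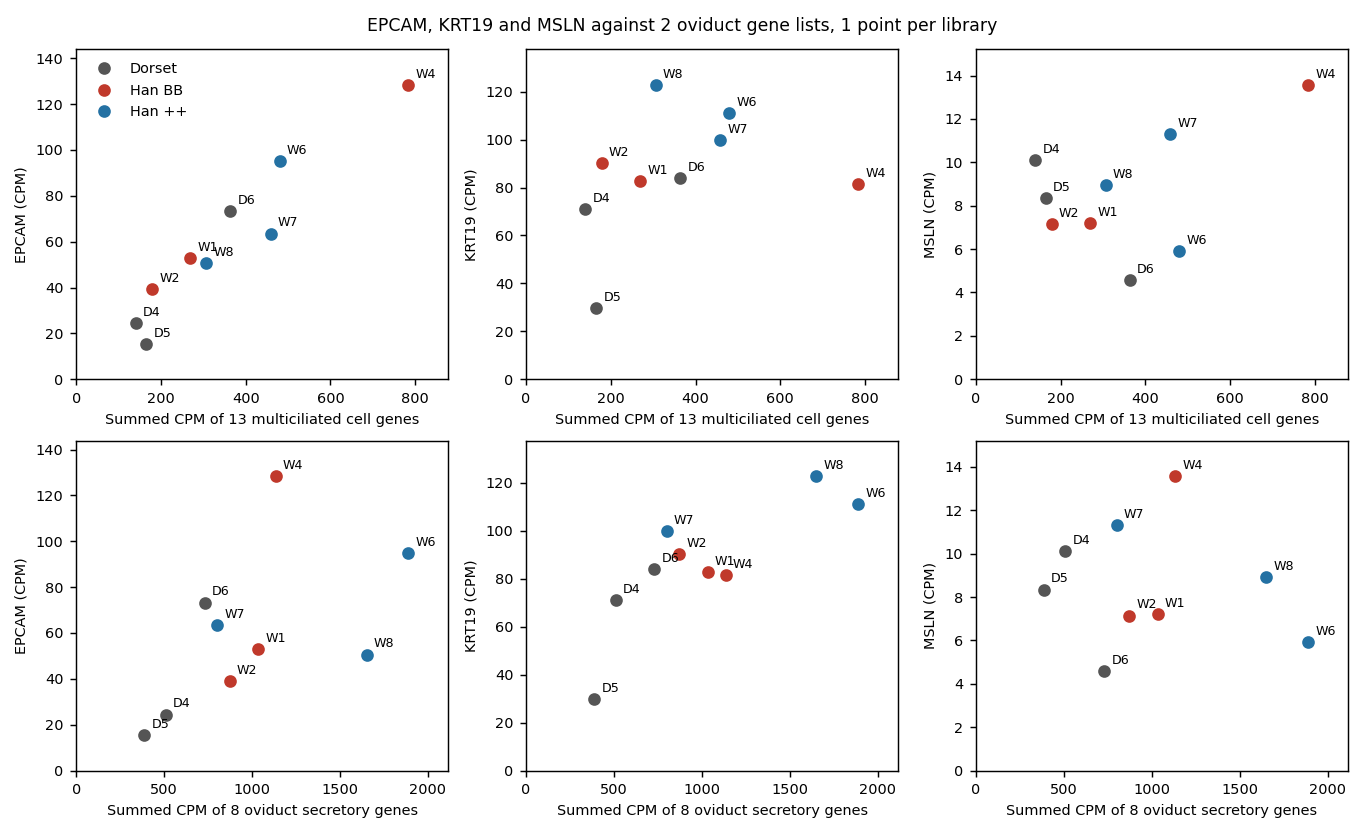
EPCAM, KRT19 and MSLN (CPM, vertical axes) against the summed CPM of 13 multiciliated cell genes (upper panels) and of 8 oviduct secretory genes (lower panels), 1 point per library in the colour of its group. EPCAM rises along the ciliated sum from D5 and D4 to W4, and MSLN shows no such order.

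Lists of other ovarian cells gave the following in Han ++ against Dorset, none with a gene called by edgeR. The 9 granulosa genes tested had a median log2 difference of -0.10 and the 9 luteal and theca genes of -0.13. The 9 genes of stroma and muscle had a median of -0.39, the 4 endothelial genes of -0.02 and the 6 immune genes of 0.28. Their most abundant genes had these log2 differences between Han ++ and Dorset. SERPINE2, INHBA and INHA, of granulosa cells, were at -0.11 ± 0.39, -0.49 ± 0.69 and 0.50 ± 0.48. OXT, CYP11A1 and PTGFR, of luteal cells, were at 0.90 ± 1.54, -0.13 ± 0.69 and 1.09 ± 0.62. COL1A1, MYH11 and DCN, of stroma and muscle, were at 0.64 ± 0.50, -0.49 ± 0.51 and 0.02 ± 0.46. VWF, PECAM1 and CDH5 of endothelium were at 0.38 ± 0.35, -0.33 ± 0.30 and -0.03 ± 0.29, and CD68, PTPRC and CSF1R of immune cells at 0.69 ± 0.68, 0.24 ± 0.44 and 0.31 ± 0.42. In Han BB all 9 granulosa genes were lower than in Dorset, with a median of -1.11. At an unadjusted p under 0.05, 1 of them was lower, as 2.89% of all genes were. The summed granulosa level ranged from 446 to 867 CPM in Han BB, from 734 to 917 in Dorset and from 550 to 961 in Han ++. Its r with KRT7, KRT8, KRT18, KRT19, EPCAM and CDH1 was between -0.46 (EPCAM) and 0.28 (KRT8). Without W4 and D6 this r was between -0.389 (EPCAM) and 0.609 (KRT8).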

How the data were processed

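Ovary RNA of 9 ewes was sequenced as paired-end reads, and the authors aligned them with TopHat at default settings to the Oar_v3.1 genome and kept uniquely mapped reads. The authors deposited raw counts for every gene in each library, not normalized. The counting program, strand setting and versions were not given in the sources used here. The library kit is stated in 2 ways (a stranded total RNA kit in the methods, another TruSeq kit in the labels). Values of genes with an antisense neighbour, or with near-identical copies elsewhere, which KRT8 and KRT18 can have, are therefore uncertain.

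The 10 genes and 12 gene lists (144 genes) were chosen with earlier results of these data known. Tests were run in R 4.3.3 (edgeR 4.0.16, DESeq2 1.42.0, limma 3.58.1), and Python 3.11.15 with matplotlib 3.10.9 drew the figures. Group means of all 9 libraries entered a single fit for edgeR's quasi-likelihood F-test, with TMM scaling and edgeR's expression filter, which kept 16871 of 27174 rows, and Benjamini-Hochberg adjustment over these. A gene was called where the adjusted p was under 0.05 and the change over 1.5-fold either way, the study's thresholds. Each SE was derived from the same test, as the absolute log2 difference over the square root of its F statistic. The scripts were tested on simulated data. Alternatives were DESeq2's size factors, DESeq2, limma voom with quality weights, no filter, at least 1 CPM in 3 libraries, fits of only the 2 groups compared, the adjusted p alone, a covariate for W4 and D6 against the rest, leaving both out, and leaving out each library in turn.

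Named outside the 10 genes are, per list, the 3 tested genes of the highest mean CPM and, for epithelial, surface and oviduct lists, the 3 of the smallest p for any group difference. LAMB3 was named after its value was seen. Pattern likeness and correlations used log2 CPM with a prior count of 2. Names were matched to the RefSeq table of ARS-UI_Ramb_v3.0 for 9 of the 10 genes, KRT7 being unmatched, and that assembly served for names and neighbours only. Total counts were 10803913 to 20992535 per library. PCR reads are not independent molecules, so limits at 0 reads cover counting error only. The p-values weigh differences between group means against the spread between ewes. The common biological coefficient of variation was 0.472, a value over all tested genes and not that of any single member.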

Additional observations from a re-analysis of the deposited data

How the results depend on the processing

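Calls, medians and gene differences were recomputed under up to 18 alternatives. CLDN4 and UPK3B gave no value where a filter removed them, and counts without overlap were recomputed only where libraries or scaling changed. Correlations and list sums were recomputed only without the libraries named beside them. The number of members called was 0 in every pairwise comparison under all of them, except for Han ++ against Dorset with a covariate for W4 and D6 (2, CDH1 and EPCAM) and without both libraries (1, KRT7). Without both, members whose groups did not overlap numbered 6 for Han BB against Dorset (33.8% of all genes, against 8.79% with all libraries) and 5 for Han BB against Han ++ (27.8%, against 9.38%). Leaving out 1 library at a time gave 0 to 4 for Han BB against Dorset (4 without D6, with 24.3% of all genes), 3 to 5 for Han BB against Han ++ (5 without W4, with 27.8%) and 4 to 7 over all alternatives for Han ++ against Dorset (7 without D6, with 24.4%).

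In Han ++ against Dorset every member except MSLN kept its direction under all alternatives that gave a value, CLDN4 lower and the others higher. The log2 differences that changed sign were uncalled ones. With voom, CLDN4 (0.93), MSLN (-0.0027) and UPK3B (-0.72) did so in Han BB against Dorset, and EPCAM (-0.47) and MSLN (-0.11) in Han BB against Han ++. With the covariate, EPCAM was at -0.67 in Han BB against Han ++. Without W4 and D6, MSLN was at -0.077 in Han ++ against Dorset and -0.36 in Han BB against Dorset, and in Han BB against Han ++ MSLN was at -0.29 and EPCAM at -0.61. The cause of these changes was not tested.

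Signs of uncalled log2 differences also turned when 1 library was left out. In Han BB against Dorset the turned values were 0.92 without D4, 0.26 without W2 and 0.20 without W4 for CLDN4, -0.30 without D5 and -0.17 without W2 for KRT18, -0.029 without D5 and -0.13 without W4 for KRT8, -0.11 without W4 for MSLN, and -1.44 without W2 for UPK3B. In Han BB against Han ++ they were -0.61 without W4 and -0.11 without W8 for EPCAM, 0.16 without W1 and 0.20 without W8 for KRT8, and -0.29 without W4 and -0.10 without W6 for MSLN. In Han ++ against Dorset MSLN was at -0.079 without D6 and -0.061 without W7. With 3 ewes per group and 0 to 53 reads per library, CLDN3, CLDN4 and UPK3B set no narrow bound in any comparison. No paired analysis was possible because the groups are different ewes and the ewe numbers in the labels coincide for at most 1 ewe between any 2 groups (D4 and W4, D6 and W6).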
